A study of Rattus norvegicus with 9 samples.

Results

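The core circadian clock loop was followed through 10 genes in rat liver: Bmal1, Clock, Npas2, Nr1d1, Nr1d2, Per1, Per2, Per3, Cry1 and Cry2. They were taken by exact gene symbol from the platform annotation of a one-colour Affymetrix array, and all 10 had a probe set, 18 probe sets of the 31042 that are not array controls. The group was selected on the signals of these same arrays, since it was proposed with results computed from them in view, so the genes' levels and differences are given as a description and carry no independent test. The data come from 9 livers of Wistar rats that the labels call male and of 180 to 220 g. Of 36 rats, 12 each were assigned at random to a control, a model and a drug group, and 3 per group were arrayed. The drug group is labelled 7-P. What was done to the model rats, whether the drug rats were first treated like them, the identity, dose and duration of 7-P, the age of the rats and the time of day at which the livers were taken are not given in the sources used here.

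As background, the clock is a transcription loop that runs in nearly every cell and is strong in liver. BMAL1 pairs with CLOCK or its relative NPAS2, binds E-boxes and switches on the Per, Cry and Nr1d genes. PER and CRY proteins then hold BMAL1 and CLOCK back, while the nuclear receptors NR1D1 and NR1D2 (REV-ERB alpha and beta) repress Bmal1 through ROR response elements. In liver, Bmal1 RNA is known to peak about opposite in the day to Nr1d1, and feeding, glucocorticoids and temperature can shift the loop.

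The sequences upstream of Bmal1, Nr1d1 and Per2 are shown because the values of these 3 genes carry the pattern described below. RefSeq promoter windows on GRCr8, 250 bases before to 50 after a start, covered 9 of the 10 genes with 11 windows, Cry1 having none. Printed are the 250 bases before each start, 5′ to 3′ on the gene's strand, with the matched letters in capitals. Bmal1 lies on the plus strand at chr1:176766078-176766327. Nr1d1 has a pair of annotated starts on the minus strand, 2358 bases apart, at chr10:84231813-84232062 and chr10:84229455-84229704. Per2 lies on the minus strand at chr9:99496994-99497243.
Bmal1: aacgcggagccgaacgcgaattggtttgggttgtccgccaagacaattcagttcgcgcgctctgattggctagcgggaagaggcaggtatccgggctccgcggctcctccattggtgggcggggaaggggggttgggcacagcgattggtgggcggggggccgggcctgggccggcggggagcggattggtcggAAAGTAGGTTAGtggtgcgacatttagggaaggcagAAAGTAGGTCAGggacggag
Nr1d1 first start: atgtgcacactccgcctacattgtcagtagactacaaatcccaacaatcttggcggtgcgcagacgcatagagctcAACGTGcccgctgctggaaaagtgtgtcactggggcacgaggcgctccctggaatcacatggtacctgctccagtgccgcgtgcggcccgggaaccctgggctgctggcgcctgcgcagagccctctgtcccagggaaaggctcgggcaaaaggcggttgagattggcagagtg
Nr1d1 second start: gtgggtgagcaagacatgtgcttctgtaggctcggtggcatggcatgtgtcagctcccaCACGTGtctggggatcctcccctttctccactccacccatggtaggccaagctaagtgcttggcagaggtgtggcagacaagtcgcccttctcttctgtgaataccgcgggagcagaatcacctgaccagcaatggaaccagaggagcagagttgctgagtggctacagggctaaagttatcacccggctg
Per2: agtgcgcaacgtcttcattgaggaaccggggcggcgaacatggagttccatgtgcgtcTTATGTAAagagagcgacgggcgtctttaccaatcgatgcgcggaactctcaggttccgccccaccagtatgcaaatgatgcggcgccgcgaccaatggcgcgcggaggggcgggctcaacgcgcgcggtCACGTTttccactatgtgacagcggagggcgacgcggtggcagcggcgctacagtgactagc
The letters searched, on both strands, were the E-box CACGTG, the related E′-box CACGTT, the ROR element core TAGGTCA, the D-box TTATGTAA, which binds DBP, TEF, HLF and NFIL3, and the cyclic AMP element TGACGTCA. In the Bmal1 window the ROR core lay 16 to 10 bases before the start. It sits inside the run AAAGTAGGTCAG, which overlaps it, and a near copy, AAAGTAGGTTAG, lay 56 to 45 bases before the start. With the 1 letter that differs between these copies left free, a search chosen after this window was seen, the run occurred in 5 of all 33469 windows (0.0149%), Bmal1 included. The E-box lay 191 bases before the second Nr1d1 start, and an E′-box 174 bases before the first. Per2 held a D-box at 192 and an E′-box at 62 bases before its start, and Cry2 an E′-box at 212. Over all windows the shares were 6.42% for the E-box, 4.83% for the E′-box, 2.63% for the ROR core, 0.893% for the D-box and 1.83% for the cyclic AMP element, which no member window held. These matches are letters in a window and say nothing about binding in these livers.

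The deposited signals had no common scale, with trimmed means of 33.6 to 81.1 across the arrays, so levels here are log2 signals after quantile normalization. A measure of RNA quality, the 3′ to 5′ signal ratio of Gapdh, was 1.52 to 3.14 in control, 4.09 to 12.7 in model and 1.31 to 9.20 in drug arrays. Its control and model ranges did not overlap, so a term for this ratio cannot fully separate RNA quality from group in model against control. The same ratio of beta-actin did overlap, at 4.23 to 8.41 in control, 7.31 to 12.8 in model and 3.99 to 11.5 in drug arrays. Model 1 had the lowest Gapdh but the highest actin ratio of the model arrays. No term for the actin ratio was fitted. Control 2 and drug 3 stood apart in sex-linked transcripts. Xist, which is made from the inactive X chromosome of females, was at 2.65 and 3.05 in them and at 8.06 to 10.9 in the other 7 arrays. The Y-linked Eif2s3y was at 6.99 and 7.17 in them and at most 2.53 in the other 7, so those 7 go against the male label. These transcripts thus differ within the control and drug groups. Results that rest on drug 3 are also given without drug 3, and some without both control 2 and drug 3. The summed signal of 7 hepatocyte markers was 14.8 to 15.1 in every array. Quantile normalization gives every array the same set of values, and Alb was at 12.716 in all 3 control arrays. The sum of such bright genes is thus held nearly level and says little about hepatocyte content. Apoa1 of this list ran from 9.61 (model 3) to 11.6 (control 3). The summed signal of 4 neutrophil markers was 6.78 to 8.35 in control, 8.78 to 11.0 in model and 7.01 to 10.5 in drug arrays, and that of 6 macrophage markers 8.89 to 9.94, 9.69 to 10.9 and 9.58 to 10.4. The summed signal of 4 sinusoidal endothelium markers was 8.93 to 9.17 in control, 9.31 to 9.88 in model and 8.66 to 8.90 in drug arrays, without overlap between any of the groups and highest in model livers, as for Per1. Not every marker of that list did so. Lyve1 and Stab2 were highest in model arrays without overlap, while Pecam1 overlapped between model and control. Kdr overlapped in all comparisons, at 7.09 to 7.55 in control, 6.59 to 7.79 in model and 6.62 to 7.73 in drug arrays. The part of the marker signals in the clock values was not tested. No marker signal was at 0, and in whole liver fewer cells of a type and less RNA per cell cannot be told apart. Of the 18 clock probe sets, 13 passed the filter on dim signals (a mean log2 signal of at least 2.82), at least 1 for each gene. Each gene is given by its brightest probe set. Per3 passed through the arrays in which it was high.

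In the activator arm, Bmal1 was highest in control and lowest in drug livers, while Clock was level. The log2 signal of Bmal1, the partner without which the loop stops, was 6.38, 5.46 and 5.45 in control 1, 2 and 3. It was 4.61, 5.30 and 4.89 in model and 4.62, 4.49 and 2.51 in drug livers. Every control array lay above every model and drug array, whereas model and drug overlapped, since drug 1 lay just above model 1. The means were 5.77 ± 0.534, 4.93 ± 0.346 and 3.87 ± 1.18 (SD, n = 3). In the limma fit Bmal1 was lower by -0.83 (SE 0.540) in model and by -1.89 (SE 0.540) in drug than in control livers, the latter a 3.71-fold difference, whose size is not exact because drug 3 lay under the level of the filter, near background. The drug against model difference was -1.06 (SE 0.540). Much of the drug value came from drug 3, for without drug 3 the drug differences were -1.21 against control and -0.38 against model. As deposited, before normalization, Bmal1 signals were 141, 30.1 and 61.8 in control, 23.9, 31.9 and 28.1 in model and 31.1, 18.8 and 4.76 in drug arrays. On that scale control 2 lay below model 2 and drug 1.

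Clock, the histone acetyltransferase partner of BMAL1, ran from 5.64 (drug 1) to 6.66 (model 3) over all 9 arrays. Its differences were 0.17 and -0.18 in model and drug against control and -0.35 in drug against model, each with an SE of 0.266, and the groups overlapped in all 3. The span over the arrays, 1.02, was below the median span of 1.57 over the 18625 probe sets that passed the filter. A second Clock probe set was as level, from 5.19 to 5.98, and the remaining pair were under the filter and scattered. Npas2, which can stand in for CLOCK, was at 5.98, 5.94 and 6.54 in control, 2.34, 6.37 and 6.28 in model and 4.85, 6.61 and 5.41 in drug arrays. Model 1 alone was far below the others and under the level of the filter, so the size of differences that include it is not exact. The model difference of -1.16 (SE 0.933) became 0.17 without model 1, and the drug against model difference of 0.62 became -0.70.

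**Figure D1:**
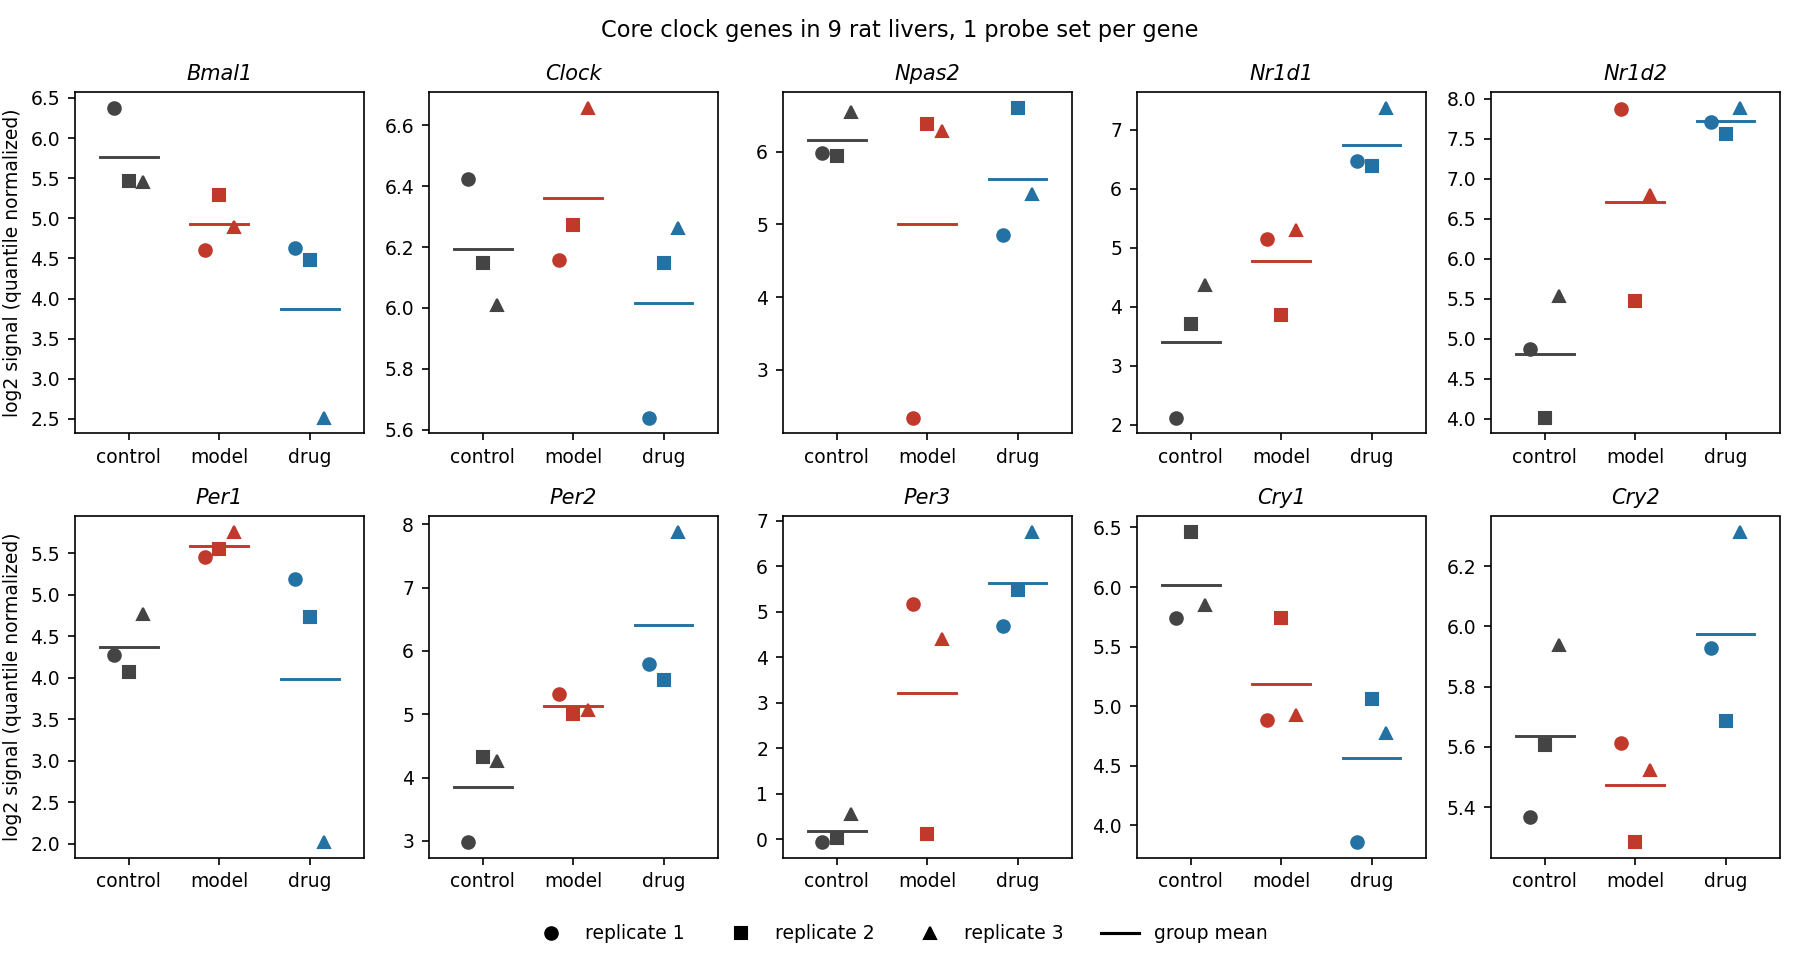
Log2 signal (quantile normalized) of the 10 core clock genes, 1 panel and 1 probe set per gene, by group; symbols are the 3 arrays of a group and lines the group means. Nr1d1, Nr1d2, Per2 and Per3 have their lowest mean in control and highest in drug livers, Bmal1 and Cry1 the reverse, and each panel has its own vertical scale.

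The REV-ERB repressors ran the other way. Nr1d1 was at 2.12, 3.70 and 4.37 in control, 5.14, 3.85 and 5.30 in model and 6.47, 6.39 and 7.37 in drug arrays. All 3 drug arrays lay above all others, and model 2 lay among the controls. The means were 3.40 ± 1.16, 4.77 ± 0.794 and 6.75 ± 0.545 (SD, n = 3). Nr1d1 was higher by 3.35 (SE 0.594) in drug than in control livers, a 10.2-fold difference, by 1.98 in drug than in model and by 1.37 in model than in control livers. Without control 2 and drug 3 these were 3.19, 1.67 and 1.52. Without control 1 alone the model against control difference was 0.73. Control 1 lay under the level of the filter, near background, so the size against control is not exact. With an offset added before the log it was 3.25. The deposited signals were 6.52, 8.87 and 29.6 in control, 34.7, 12.2 and 37.5 in model and 128, 65.9 and 119 in drug arrays, so on the scale as deposited too every drug array was brightest.

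Nr1d2, the second REV-ERB, was at 4.87, 4.01 and 5.54 in control, 7.87, 5.47 and 6.80 in model and 7.72, 7.56 and 7.89 in drug arrays. The drug arrays were close together, with an SD of 0.167, while model 2 again fell among the controls and model 1 among the drug arrays. The difference was 2.92 (SE 0.560) in drug against control, 1.91 in model against control and 1.01 in drug against model livers. Without model 2 the last was 0.39. A second probe set that passed the filter had 4.58, 3.03 and 3.73 in control, 5.85, 3.42 and 4.2 in model and 7.19, 5.70 and 5.74 in drug arrays, and its drug arrays lay above its control arrays as well, by 2.43 (SE 0.659). The third was under the filter and its groups overlapped.

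The 3 Period genes, the negative limb that feeds back on BMAL1, did not move as one. Per2 was at 2.98, 4.32 and 4.26 in control, 5.33, 5.01 and 5.06 in model and 5.79, 5.54 and 7.88 in drug arrays. After normalization its 3 groups were separate, control below model below drug. As deposited they were not: control 3 (27.6) lay above model 2 (26.2), and drug 2 (37.7) below model 1 (39.2). The normalized log2 differences were 1.28 (SE 0.590) and 2.55 in model and drug livers against control and 1.27 between drug and model. Drug 3 carried part of this, and without drug 3 the drug differences were 0.53 against model and 1.81 against control. The other Per2 probe set, under the filter, ran from 1.17 (model 2) to 2.78 (model 1), with overlapping groups. Its drug differences were 0.11 against control and -0.40 against model, so it did not share this pattern.

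Per3 showed the widest span, 6.81. Its signal was at -0.06, 0.04 and 0.55 in control, 5.16, 0.12 and 4.39 in model and 4.69, 5.47 and 6.75 in drug arrays. Model 2 was as low as the controls, and these 4 arrays lay under the level of the filter. The difference of 5.46 (SE 1.15) between drug and control livers is measured against background and its size is not exact; it was 4.82 with an offset. The drug against model difference of 2.41 was 0.86 without model 2 and 1.85 without drug 3. The other Per3 probe set, under the filter, ran from 0.991 to 3.53, with overlapping groups and its lowest values in drug 2 and model 1, and so did not share this pattern.

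Per1, the Period gene that responds fastest to outside signals, had another order. It was at 4.27, 4.07 and 4.77 in control, 5.45, 5.55 and 5.76 in model and 5.19, 4.73 and 2.02 in drug arrays. After normalization every model array lay above every control and every drug array. As deposited, control 3 (38.3) lay above model 2 (37.5), and drug 1 (48.2) above model 1 (42.7) and model 2. The normalized log2 differences were 1.22 (SE 0.684) in model against control and -1.61 in drug against model livers. Drug and control overlapped, at -0.39, and that sign rests on drug 3, which was under the level of the filter and without which it was 0.59, and the drug against model difference was -0.63. Drug 3 thus had the highest Per2 and Per3 of all arrays together with the lowest Per1 and Bmal1.

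Of the cryptochromes, the repressors that partner PER, Cry1 was highest in control and lowest in drug livers, and Cry2 varied little. Cry1 was at 5.74, 6.46 and 5.85 in control, 4.88, 5.74 and 4.92 in model and 3.86, 5.06 and 4.77 in drug arrays. The drug arrays all lay below the control arrays, by -1.45 (SE 0.388), a 2.73-fold difference. Model livers were lower than control livers by -0.83, with model 2 level with control 1. The brighter Cry2 probe set ran from 5.28 (model 2) to 6.31 (drug 3). Its drug arrays lay above its model arrays, by 0.50 (SE 0.268), and overlapped the controls. The dimmer Cry2 probe set did not do so, with 4.93, 3.59 and 1.68 in drug and 2.80, 2.92 and 3.87 in model arrays.

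**Figure D2:**
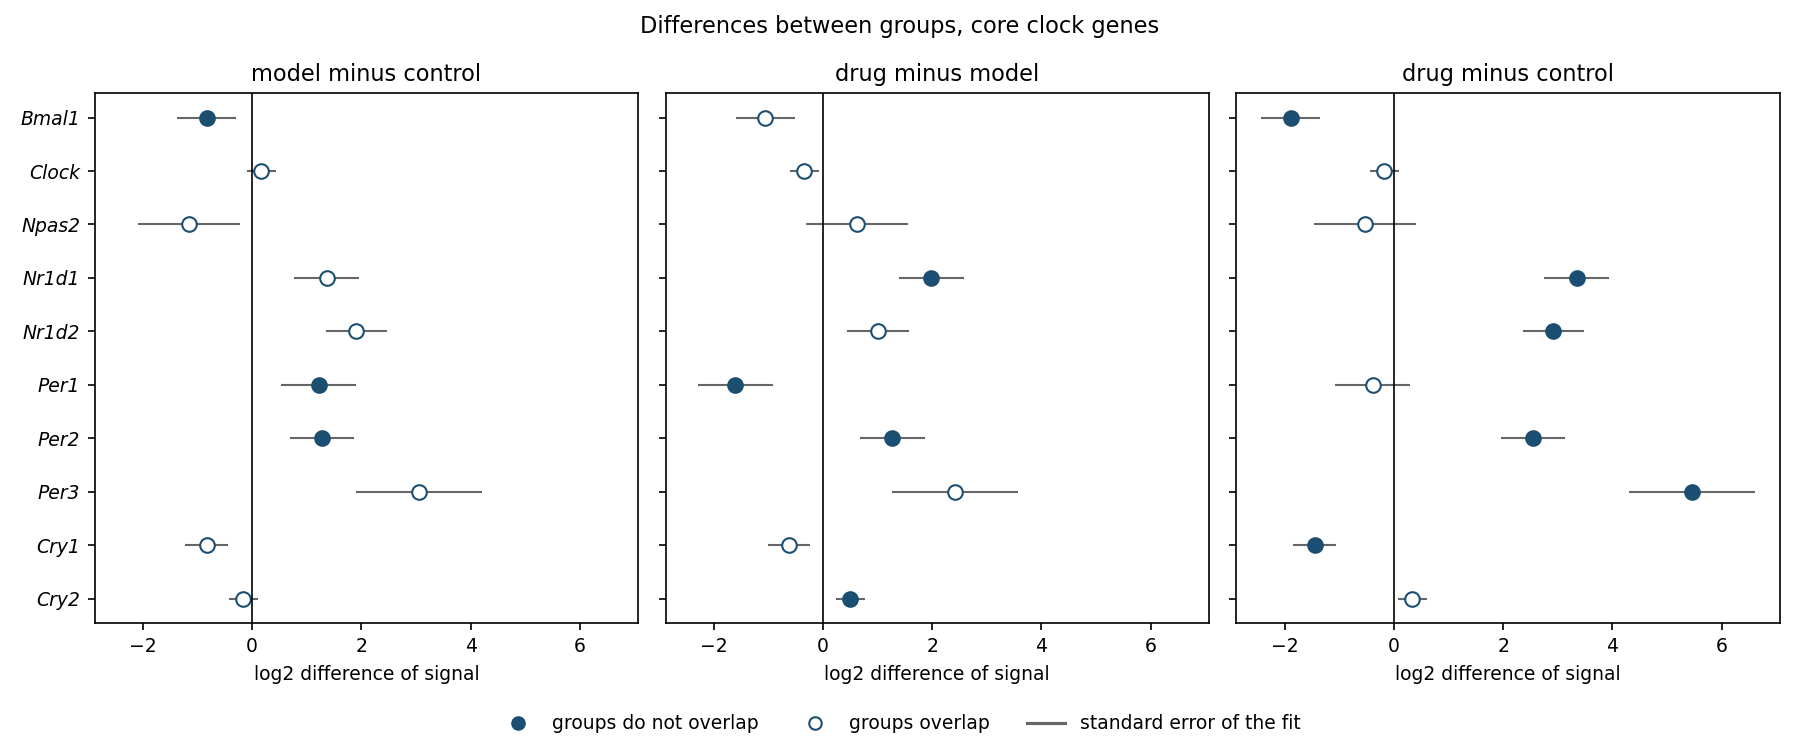
Log2 difference of signal for the 10 genes in model minus control, drug minus model and drug minus control livers, with the standard error of the limma fit; filled points mark genes whose arrays do not overlap between the groups. Per3, Nr1d1, Nr1d2 and Per2 lie farthest to the right in drug minus control and Bmal1 and Cry1 farthest to the left.

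Set against all probe sets, no clock probe set passed a limma Benjamini-Hochberg adjusted p under 0.05 in any of the 3 comparisons, nor did any of the 18625 probe sets (0%). In model against control livers 3 of the 13 clock probe sets had an unadjusted p under 0.05, all higher (Nr1d1, Nr1d2 and Per3), where 12.1% of all probe sets did, 6.52% higher and 5.53% lower. The groups did not overlap for 3 of 13 clock probe sets, beside 22.6% of all, 2 of them higher (Per1 and Per2), beside 11.8%, and 1 lower (Bmal1), beside 10.9%. In drug against model livers the unadjusted count was also 3 of 13 (Nr1d1 and a dimmer Nr1d2 probe set higher, Per1 lower), beside 3.27% of all, 1.47% higher and 1.8% lower. There 4 of 13 did not overlap, beside 8.1% of all, 3 of them higher (Nr1d1, Per2 and Cry2), beside 3.38%, and Per1 lower, beside 4.72%. In drug against control livers 7 of 13 had an unadjusted p under 0.05, beside 7.24% of all, 5 of them higher, beside 4.21%, and 2 lower, beside 3.03%. The same 7 did not overlap between the groups, beside 12.6% of all, 5 higher (Nr1d1, both Nr1d2 probe sets, Per2 and Per3), beside 6.07%, and 2 lower (Bmal1 and Cry1), beside 6.48%. Because the group of genes was proposed with these contrasts in view, nothing is read from these counts. The limma adjusted p of Nr1d1 was 0.673 and 0.411 in drug and model against control and 0.998 in drug against model livers. The 5 probe sets under the filter overlapped in every comparison.

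The genes also varied together from array to array. Pearson correlations of log2 signal over the 9 arrays are given as a description, without a test, since the arrays hold the group differences already described and share their normalization. Bmal1 and Per2 had r = -0.98, and r = -0.97 for deviations from the group means; of the 10422 other genes that passed the filter, 0% had a lower r with Bmal1. Bmal1 and Nr1d1 had r = -0.90, or -0.73 within groups and -0.95 without drug 3. Nr1d1 had r = 0.91 with Per2, 0.90 with Per3 and 0.86 with Nr1d2, and within groups 0.71, 0.66 and 0.50. Cry1 had r = -0.74 with Nr1d1 but -0.11 within groups, so its likeness lies in the group means. Clock (-0.31) and Npas2 (-0.20) followed Nr1d1 little. Per1 had r = 0.56 with Bmal1 and, without drug 3, -0.57, so its sign rests on drug 3. Without normalization, where array brightness is shared by all genes, Bmal1 had r = -0.81 with Per2 and -0.68 with Nr1d1.

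**Figure D3:**
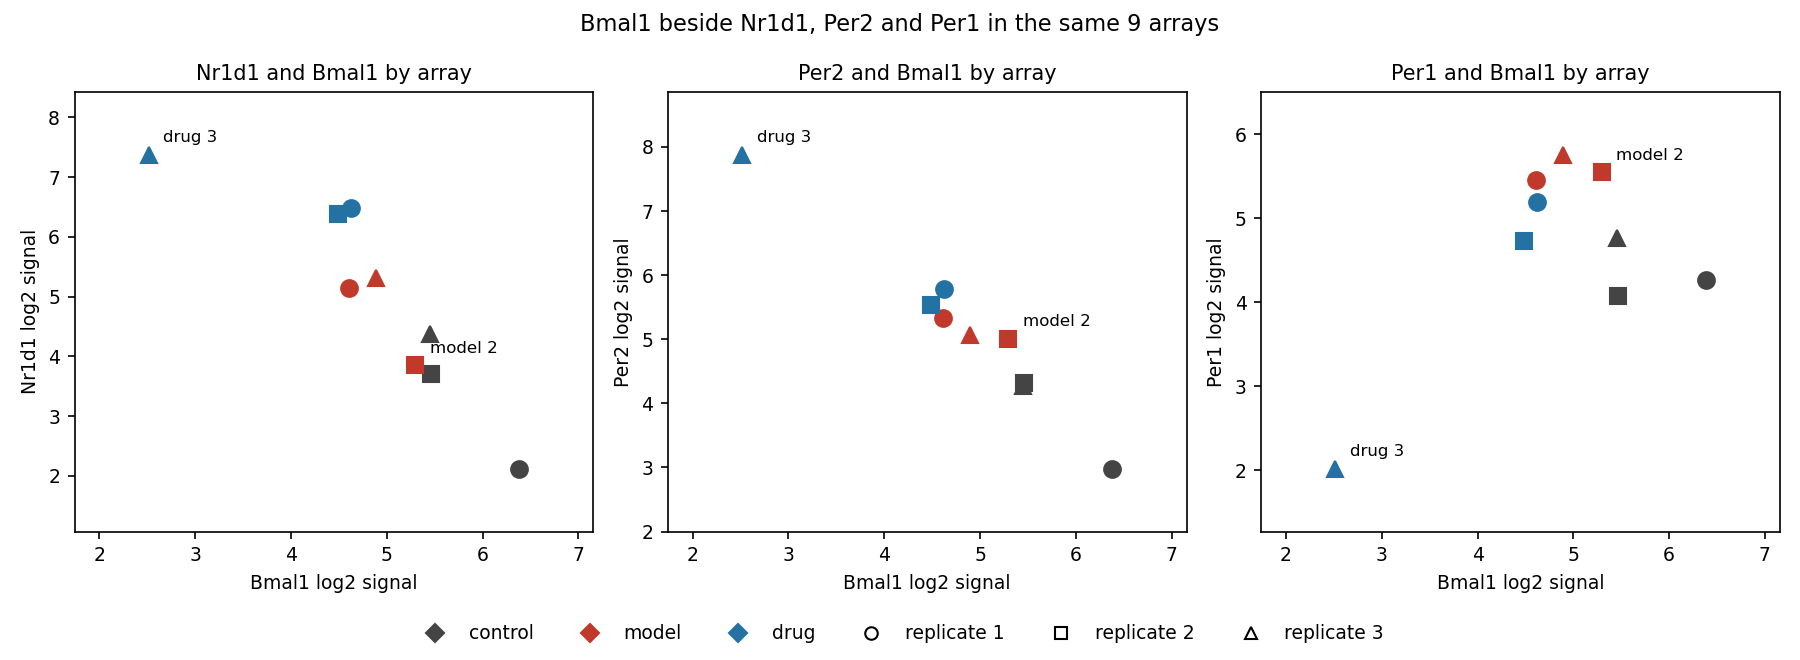
Log2 signal of Bmal1 (horizontal) against Nr1d1, Per2 and Per1 (vertical), 1 point per array, colour for the group and symbol for the replicate. Nr1d1 and Per2 are lowest where Bmal1 is highest and drug 3 stands at the far end in each panel; model 2 lies beside the controls for Nr1d1, and Per1 follows no such line.

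Genes outside the loop with the most similar or most opposite pattern over the 9 arrays were taken by rank of r among those 10422 genes. Most like Nr1d1 were Strn (r = 0.96), Setdb1 (0.94), Stx4 (0.93), Zfp182 (0.91) and Wdr90 (0.91), and most opposite were Bmp6 (-0.93), Tmem263 (-0.92), Litaf (-0.92), Wipi2 (-0.91) and LOC102551009 (-0.91). Most like Bmal1 were LOC102551009 (0.97), S1pr3 (0.94), Ptk2 (0.93), Scarf2 (0.93) and Clcn7 (0.92). Without drug 3, in which Scarf2 (1.5) and Clcn7 (-0.81) were lowest, r was 0.96, 0.78, 0.83, 0.79 and 0.76 in the same order. Most opposite to Bmal1 were Naa25 (-0.95), Tob1 (-0.92), Zfp182 (-0.91), Hlf (-0.91) and C18h5orf63 (-0.90), at -0.84, -0.71, -0.91, -0.89 and -0.84 without drug 3. LOC102551009 and Zfp182 appear for both genes, from opposite sides. Strn, a scaffold protein, spanned only 5.10 to 5.98, so a high r does not mean a large change. Without normalization Tob1 (0.13) and C18h5orf63 (0.31) turned sign with Bmal1, and Naa25 and Hlf were both at -0.39. With Nr1d1, Strn was then at 0.52, Stx4 at 0.36, Litaf at -0.48 and LOC102551009 at -0.62. The 5 genes most like Bmal1 were at 0.89 to 0.97.

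Among 20 clock output genes of liver, 17 had a probe set past the filter, and 0 passed the adjusted threshold in limma in each comparison. Dbp and Nfil3, factors that act at D-boxes, had the smallest p of the list in both comparisons of drug livers. Dbp, a direct E-box target of BMAL1 and CLOCK, was at 4.0, 4.08 and 3.34 in control, 5.48, 2.96 and 2.68 in model and 7.75, 5.30 and 7.75 in drug arrays. Its drug arrays lay above its control arrays, by 3.12 (SE 0.811), and by 3.22 above the model mean, although drug 2 lay below model 1. Nfil3, which represses at the same D-boxes, was lower in drug than in control livers by -1.43 (SE 0.348), with 7.88, 7.67 and 8.26 in control and 6.08, 7.35 and 6.10 in drug arrays, and by -0.75 than in model livers. Tef had means of 5.01, 5.33 and 6.05 and Hlf of 5.77, 6.29 and 6.67 in control, model and drug livers. The limma adjusted p was 0.673 for both Dbp and Nfil3 in drug against control. In model against control livers the vasopressin receptor Avpr1a (-1.32) and the bile acid enzyme Cyp7a1 (1.16) had the smallest p of the list, and Avpr1a was -0.42 with a term for the Gapdh ratio. In this list 9 genes were higher and 8 lower in drug than in control livers, with a median of 0.09, beside -0.03 over all 10432 genes; the medians were 0.05 and 0.08 in model against control and drug against model, beside 0.01 and -0.03.

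**Figure D4:**
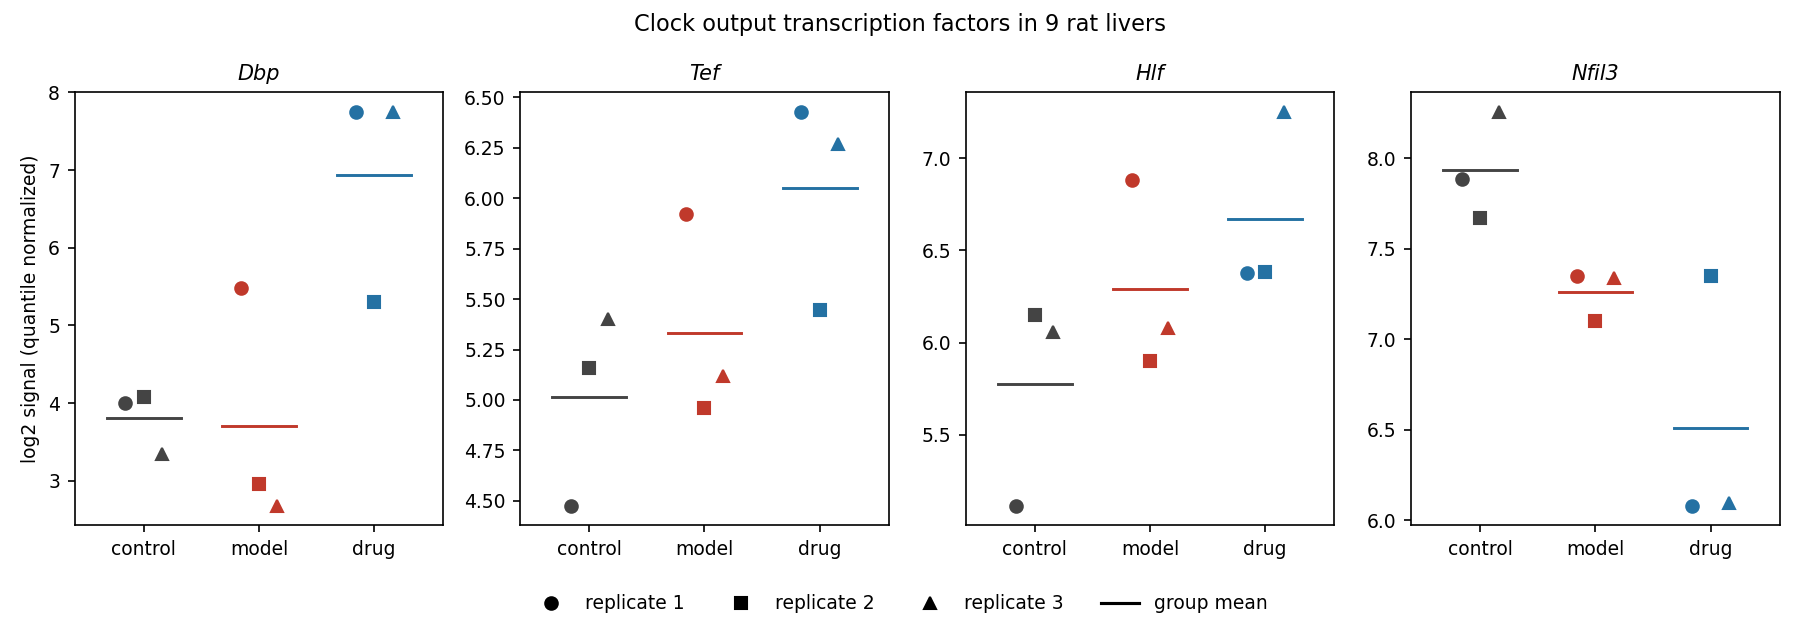
Log2 signal (quantile normalized) of the D-box factors Dbp, Tef, Hlf and Nfil3 by group; symbols are the 3 arrays of a group and lines the group means, with a vertical scale per panel. Drug 1 and drug 3 have the highest Dbp, near 7.75, and the lowest Nfil3, near 6.10, while drug 2 lies with the model arrays for Nfil3.

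Of 25 regulators of the loop, 17 had a probe set past the filter and 0 passed in limma in each comparison. Their medians were -0.11 and -0.23 in model and drug against control livers and 0.10 in drug against model. Rora, an activator that competes with the REV-ERBs for the ROR element, had means of 5.27, 5.34 and 4.97 in control, model and drug livers. The kinase subunit Csnk2b (-1.17) and the ubiquitin ligase subunit Btrc (-0.76), which marks PER for breakdown, had the smallest p in model against control, and Csnk2b was -0.31 with the Gapdh term. In drug against model these were Bhlhe40 (1.60, or 0.94 with the Gapdh term), an E-box repressor, and the CREB coactivator Crtc2 (0.50). In drug against control they were the coactivator Ppargc1a (1.87), which was at 0.61 in control 2 and 3.45 to 5.19 elsewhere, and the PER kinase Csnk1e (0.85). Without control 2 and drug 3 Ppargc1a was 1.0.

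Genes that report the outside cues of the liver clock were counted in 4 lists, with 0 passing in limma in each list and comparison. Of 7 glucocorticoid targets tested 6 were higher in drug than in control livers, with a median of 0.80, among them the metallothionein Mt1 at 1.69 (SE 0.828), while Tsc22d3 was at -0.53. Without drug 3 the median of 0.80 was 0.37, and over all 10432 genes the drug against control median was -0.03. The list medians were 0.08 in model against control and 0.04 in drug against model. Fkbp5 was 0.81 (SE 0.329) and Mt1 1.5 in model against control, without overlap, and with the Gapdh term Mt1 was 0.02 in model and 0.86 in drug against control livers. In drug against model Dusp1 was at 1.74 and Fkbp5 at -0.50. Of 6 temperature and heat shock genes, Rbm3, a cold-induced RNA-binding protein, was at 5.62, 5.37 and 5.57 in control, 7.08, 6.13 and 6.82 in model and 6.69, 7.05 and 6.97 in drug arrays. It was higher by 1.16 (SE 0.282) in model and 1.38 (SE 0.282) in drug than in control livers, and the chaperones Dnajb1 (-0.57 in model) and Hsph1 (-0.77 in drug) were lower without overlap. Cirbp, the sister protein of Rbm3, was 0.29 and Hsph1 -0.43 in drug against model. The list medians were -0.11 and 0.01 in model and drug against control and 0.17 in drug against model.

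Of 10 feeding and fasting genes, Pck1, the gluconeogenic enzyme that rises on fasting, was higher in model than in control livers by 0.49 (SE 0.219) and lower in drug than in model livers by -0.69 (SE 0.219), both without overlap. The first turned to -0.15 without normalization, a setting in which all probe sets together had a median of -0.40. Srebf1, the lipogenic regulator that rises on feeding, was higher in drug livers by 1.28 (SE 0.376) than in model and by 1.04 than in control livers, or by 0.87 and 0.62 without drug 3. Pklr (-0.93 in model against control) and Fasn (1.14 in drug against control) overlapped. Fasn was 0.63 without control 2 and 0.33 without control 2 and drug 3. Pklr, the third by p in drug against model and named after its value was seen, was higher there by 1.38 (SE 0.460), without overlap. Fgf21, next by p and also named after its value was seen, was higher there by 1.46 (SE 0.889), without overlap. It was at 2.86, 2.95 and 2.92 in model and 4.56, 4.64 and 3.91 in drug arrays. Over the whole list, 5 genes were higher and 5 lower in drug than in model livers. The medians of this list were 0.13, 0.23 and 0.44. The last, drug against control, rests on control 2: it was -0.01 without control 2 and 0.09 without control 2 and drug 3. Of 7 immediate early genes none was apart between groups in any comparison. The 2 with the smallest p were Ier2 (-0.35) and Junb (0.47) in model against control livers, and each sign rests on 1 array: Ier2 was 0.04 without control 3 and Junb -0.13 without model 1. For drug livers they were Myc and Jun, at -0.50 and 0.49 against model and at -0.60 and 0.26 against control. Against control Myc was -0.27 without control 3, and Jun turned to -0.06 without drug 3 and to -0.13 without normalization. Against model Jun was 0.16 without drug 3. Their medians were -0.09, 0.21 and 0.16.

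**Figure D5:**
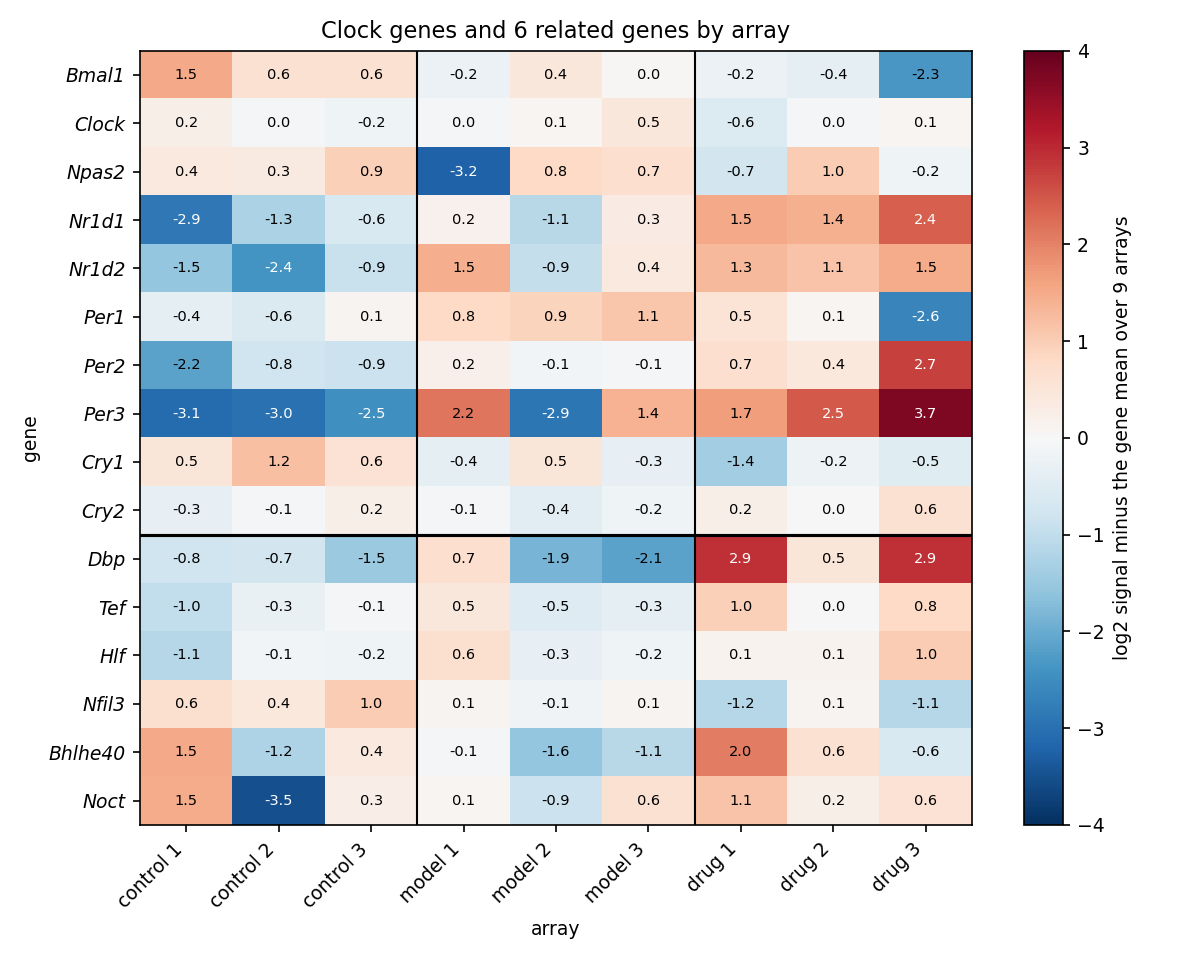
Log2 signal of the 10 clock genes (above the line) and 6 related genes (below) in each of the 9 arrays, minus the mean of that gene over the arrays, as colour and printed value. Drug 3 holds the extremes of Bmal1 (-2.3), Per1 (-2.6), Per2 (2.7) and Per3 (3.7), and model 2 has a control-like Nr1d1 (-1.1) and Per3 (-2.9).

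With the Gapdh ratio as a term, the drug against control differences were 3.19 for Nr1d1, 3.18 for Nr1d2, 2.26 for Per2, 5.56 for Per3, -1.62 for Bmal1 and -1.82 for Cry1. In model against control they were 1.09, 2.38, 0.76, 3.23, -0.35 and -1.50 in the same order, so the Bmal1 and Per2 values were smaller and the Cry1 value larger with the term. The ratio did not overlap between these groups, so the model against control values with the term are extrapolated. Leaving out both drug 3 and model 2, drug against model was 1.21 for Nr1d1, 0.30 for both Nr1d2 and Per3, 0.47 for Per2 and -0.19 for Bmal1. Leaving out control 2 and drug 3, drug against control was 2.43 for Nr1d2, 2.04 for Per2 and 4.83 for Per3. It was then -1.36 for Bmal1, -1.33 for Cry1 and 0.44 for Per1.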

How the data were processed

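Liver RNA of 9 rats was measured on one-colour arrays, labelled with biotin. Per the labels' protocols the array maker's standard steps were followed. The deposited values are linear signal intensities, 1 per probe set and array, made with GCOS 1.2, per the submitters' processing notes. How that program was set is not given in the sources used here. All 9 arrays were used with the authors' values; none was dropped or imputed.

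Of 31099 probe sets, 57 array controls were left out. Of the others, 20826 had 1 gene symbol in the platform annotation, 436 several and 9780 none, and only the first were named. Signals were log2 transformed and quantile normalized, which removes any true difference in total RNA, and probe sets at or above the 40th percentile of mean log2 signal were kept (18625, from 10432 genes). The fit used limma 3.58.1 under R 4.3.3 (lmFit, then eBayes with an intensity trend), with 1 term per group, two-sided tests and Benjamini-Hochberg adjustment over all kept probe sets. Replicates are separate rats per the labels, and the number of arrays limits the precision. The fit was tested on simulated data. Every clock gene was named; from each list, genes past the threshold were to be named and otherwise the 2 with the smallest p, plus the 5 genes with the highest and lowest r to Nr1d1 and Bmal1. Tef, Hlf, Rora, Fgf21 and, in drug against model, Pklr were named beyond that rule, after their values were seen. The members, lists and tests were chosen with earlier results of these data known. Replicate numbers did not pair all the arrays: not every correlation of deviations between same-numbered arrays was over 0.1 in a comparison. The arrays numbered 1 did go together. Their r was 0.20 for model 1 with control 1, 0.39 for drug 1 with model 1 and 0.48 for drug 1 with control 1, each the best match. In the same order r was -0.005, 0.08 and 0.04 for the arrays numbered 2, and 0.17, 0.18 and 0.06 for those numbered 3. What the arrays numbered 1 share was not tested.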

Additional observations from a re-analysis of the deposited data

How the results depend on the processing

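Under every alternative run, 0 clock probe sets passed the limma adjusted threshold, with the smallest adjusted p of 0.0799. In the main fit the unadjusted counts over all probe sets were 2245, 609 and 1348 in model against control, drug against model and drug against control. Under the alternatives they ran from 1158 to 4031, 186 to 1787 and 457 to 3858 in the same order. Of 30 differences, 23 kept their sign under all 25 alternatives; the others were those of Clock and Cry2 in model against control and in drug against control, of Npas2 in the comparisons with the model group, and of Per1 in drug against control. Several of these 25 leave a difference unchanged by construction, so the count overstates how far the signs were tried. Among them are the filters, the intensity trend, the replicate block, the fit on only the groups compared and leaving out an array of a group not compared. The replicate block gave 0 calls among the clock genes too and 3626, 1082 and 2236 unadjusted ones over all probe sets. It changed no call of a clock gene.

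Counts of clock probe sets without overlap that moved by more than 1.5 times were as follows, and the cause was not tested. In model against control (2 higher, 1 lower) they were 0 higher without normalization, 2 lower with median centring, 4 higher and 0 lower with trimmed mean scaling, 4 higher with the replicate block, 4 higher and 2 lower with the Gapdh term, 1 higher with a term for control 2 and drug 3, 2 lower without control 1 and drug 1, and 5 higher and 2 lower without model 2 and drug 3. In drug against model (3 higher, 1 lower) they were 1 higher without normalization, 3 lower with median centring, 2 lower with trimmed mean scaling, 3 lower with the replicate block, 2 lower with a term for control 2 and drug 3, 3 lower without those arrays, 2 lower without control 1 and drug 1, and 3 lower without model 2 and drug 3. In drug against control (5 higher, 2 lower) it was 1 lower without normalization. Smaller moves there were 4 higher with a filter at the 60th percentile and 6 higher with the replicate block and without control 1 and drug 1. It was 3 lower with the Gapdh term and without control 2 and drug 3. Leaving out 1 array at a time gave 2 to 5 higher and 1 to 2 lower, then 3 to 5 and 1 to 3, then 4 to 6 and 2 to 3; fewer arrays overlap less often by construction. Without normalization Pck1 turned to -0.15 in model against control, and r with Bmal1 to 0.13 for Tob1, 0.31 for C18h5orf63 and 0.22 for Cry2. For Per1, r with Bmal1 ranged from -0.57 (drug 3 left out) to 0.75 (control 1 left out) over the single arrays, and was -0.57 for the pair control 2 and drug 3 and -0.65 for the pair model 2 and drug 3. Leaving out model 2 and drug 3 was chosen after seeing the data.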
